A study of Mus musculus with 4 samples.

Results

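The expressed Zfp genes are the protein-coding genes of the deposited table whose symbol is Zfp followed by a number and whose mean FPKM over all 4 libraries was at least 2. FPKM is a count of sequenced fragments divided by gene length and by a library size. The rule found 129 genes among 394 protein-coding Zfp genes and 54532 genes in the table. The genes were chosen by their mean level over both groups together, so levels are given as a description, and the rule asked for the change to be set against gene length.

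RNA sequencing was done on 4 mouse libraries labelled as CD4+ T cells that had infiltrated tumours of B16, a mouse melanoma line, and had been sorted by flow cytometry. 2 libraries carry the genotype label Piezo1KO and 2 the label WT; Piezo1 encodes an ion channel that opens when the membrane is stretched. The labels do not say how or in which cells Piezo1 was removed, whether each library is a different animal, or how old the animals were. The error behind each p-value is thus only that between these 4 libraries and could be technical. Piezo1KO 1 and 2 and WT 1 and 2 are the sample numbers of the titles.

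Zfp is the mouse symbol for zinc finger protein, given to genes that share a fold and not always a function. Most encode C2H2 proteins, in which a pair of cysteines and a pair of histidines hold a zinc ion and rows of such fingers read DNA. Many C2H2 proteins of mammals also have a KRAB box, which binds the corepressor Trim28 and so brings histone methyltransferases to transposable elements and imprinted genes. The Zfp36 group differs: its CCCH fingers bind AU-rich elements in the tails of mRNAs and bring the CCR4-NOT deadenylase, which shortens the poly(A) tail and starts decay.

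Several facts of the series touch every value below. Assigned reads ranged from 13789266 to 15331499 in Piezo1KO and from 15645069 to 15892797 in WT libraries, and mitochondrial genes took 20.1% and 48.3% of them in Piezo1KO 1 and 2, against 3.86% and 2.99% in WT 1 and 2. Markers of 10 melanocyte genes summed to 7465 and 7342 FPKM in Piezo1KO 1 and 2 and to 6784 and 6809 FPKM in WT 1 and 2. In contrast, 12 T cell markers summed to 15.96 and 10.3 FPKM in Piezo1KO 1 and 2 and to 2.47 and 2.30 FPKM in WT 1 and 2, with Trac and Trbc2 at 0 in WT 1. The label CD4+ T cell is thus not matched by the markers in any library, and no value here can be assigned to T cells. Piezo1 itself had 18.7 and 7.64 FPKM in Piezo1KO 1 and 2, against 27.8 and 27.6 FPKM in WT 1 and 2 (log2 change -1.14, standard error 0.41, limma adjusted p = 0.166, -1.73 without Piezo1KO 1 and -0.55 without Piezo1KO 2), so a residual signal of 67.3% and 27.6% of the WT mean was present in the libraries labelled Piezo1KO. In bulk RNA, fewer cells of a type and less RNA per cell cannot be told apart.

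Stretches of the Zfp36 promoter are shown because Zfp36, described next, had the highest change of the 129 genes and because it is known as an immediate early gene, switched on within minutes of stimulation. RefSeq windows of 250 bases before the start (GRCm38.p6) were found for 105 of the 129 genes, 131 windows in all. The capitals mark a CArG box, the site of serum response factor, 58 to 49 bases before the start, and the EGR-type motif GCGGGGGCG, 105 to 97 bases before it. Both lie on the minus strand, at chr7:28379267-28379296 and chr7:28379314-28379343, inside the span that the deposited table gives the gene.
Zfp36 CArG: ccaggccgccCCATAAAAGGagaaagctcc
Zfp36 EGR-type: gagctacgccGCGGGGGCGcgtcccggaag
On either strand, a CArG box was found in 1.47% of 32851 windows of all genes and in 1 of the 131 windows of Zfp genes, that of Zfp36. The motif GCGGGGGCG was found in 2.57% of all windows and in 7 of the 131. Letters in a window are a description and show no binding. The window of its relative Zfp36l1 (minus strand, chr12:80113014-80113263), printed for comparison, held neither motif, nor TGACGTCA or TGACTCA, the CRE and AP-1 motifs, which were in 1.55% and 4.46% of all windows.
Zfp36l1: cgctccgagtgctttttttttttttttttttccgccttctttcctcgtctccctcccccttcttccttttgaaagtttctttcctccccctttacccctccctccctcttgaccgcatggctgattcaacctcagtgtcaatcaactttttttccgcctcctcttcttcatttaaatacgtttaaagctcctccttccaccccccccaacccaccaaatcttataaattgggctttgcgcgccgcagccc

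The Zfp36 group, which makes RNA-binding decay factors, had log2 changes of both signs. Zfp36 (ENSMUSG00000044786, chromosome 7, 28376784 to 28380253, GRCm38), which encodes tristetraprolin, had 65.9 and 30.6 FPKM in Piezo1KO 1 and 2, against 9.50 and 10.6 FPKM in WT 1 and 2. Both Piezo1KO libraries lay above both WT libraries, and Piezo1KO 1 was more than double Piezo1KO 2. The means were 48.2 ± 24.9 FPKM in Piezo1KO and 10.04 ± 0.764 FPKM in WT (SD, n = 2 each). The log2 change of FPKM + 1 was 2.06 with a standard error of 0.38, and it did not pass the test over all genes (limma adjusted p = 0.104, unadjusted p = 0.00381). It passed with FPKM recomputed from each library's assigned reads, called rescaling below (log2 change 1.29, limma adjusted p = 0.0304). Its log2 change was 1.52 without Piezo1KO 1 and 2.60 without Piezo1KO 2. The limma adjusted p was 0.00261 and 0.00337 without Piezo1KO 1 and 2, where the spread comes from the WT libraries alone, and 0.615 and 0.657 without WT 1 and 2, where it comes from the Piezo1KO libraries alone. In reads the counts were 3372 and 796 in Piezo1KO 1 and 2 and 650 and 747 in WT 1 and 2, so the raw count of Piezo1KO 2 lay just above those of WT.

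Its relatives lay the other way. Zfp36l1 had 11.8 and 7.36 FPKM in Piezo1KO 1 and 2, against 14.2 and 14.4 FPKM in WT 1 and 2, a log2 change of -0.57 (standard error 0.23, limma adjusted p = 0.191). Zfp36l2 had 20.3 and 9.90 FPKM in Piezo1KO 1 and 2, against 22.5 and 24.7 FPKM in WT 1 and 2, a log2 change of -0.69 (standard error 0.35, limma adjusted p = 0.243). Neither overlapped between groups, where 35.6% of all genes tested were lower without overlap and 33.9% higher. For both, Piezo1KO 2 was the lowest library, and neither passed. After rescaling both passed (limma adjusted p of 0.0351 for Zfp36l1 and 0.0163 for Zfp36l2). The median of all genes tested was then -0.67, and 12.9% of them passed lower. Without Piezo1KO 1 their log2 changes were -0.88 and -1.17, and without Piezo1KO 2 -0.26 and -0.21. Zfp36 thus had the highest FPKM of the 3 relatives in both Piezo1KO libraries, and the lowest in both WT libraries.

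Markers of other cells, like Zfp36, mostly had higher FPKM in Piezo1KO. Over all genes tested, 0.731% passed higher. All 8 macrophage markers had a positive log2 change, 2 passed, and their summed level was 388 and 269.9 FPKM in Piezo1KO 1 and 2, against 93.3 and 69.1 FPKM in WT 1 and 2. Of 6 neutrophil markers 4 were tested and 2 passed, all higher, with summed levels of 142 and 47.8 FPKM in Piezo1KO 1 and 2 and of 0.713 and 1.25 FPKM in WT 1 and 2; Ly6g was at 0 in all 4 libraries. All 5 erythroid markers passed, higher, with summed levels of 5124 and 8472 FPKM in Piezo1KO 1 and 2 and of 389 and 244 FPKM in WT 1 and 2. Of 5 B cell markers 2 were tested, both higher, and 0 passed. The 4 T cell markers tested were also higher, and 0 passed. The macrophage marker Adgre1 overlapped between groups. Of the Piezo1KO libraries, the erythroid sum was higher in Piezo1KO 2, whereas Zfp36 was higher in Piezo1KO 1. The part of these cells in the Zfp36 value was not tested.

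The partners of the Zfp36 group in mRNA decay were mostly at lower FPKM in Piezo1KO. Of 21 tested deadenylation and decay genes, 1 passed higher and 0 passed lower, where 0.731% and 0.37% of all genes tested did. Against a median log2 change of -0.0059 for all genes tested, that of the decay genes was -0.29. These genes are long, with a median of 6610 bases, and with the length trend removed their median was -0.10. At an unadjusted p under 0.05 there were 2 higher and 6 lower, where 14.9% and 13.7% of all genes tested were. The gene that passed was Btg1, an antiproliferative protein that binds the deadenylase, with 23.4 and 20.4 FPKM in Piezo1KO 1 and 2 and 8.34 and 8.74 FPKM in WT 1 and 2 (log2 change 1.26, limma adjusted p = 0.0465). Its limma adjusted p was 0.605 and 0.657 without WT 1 and without WT 2, 0.171 without a filter on low values, 0.351 after rescaling and 0.0792 with mitochondrial reads left out of the scaling. With the length trend removed, the limma adjusted p of Btg1 was 0.05002, just above the threshold. Its relative Btg2 had 11.6 and 6.76 FPKM in Piezo1KO 1 and 2 and 1.89 and 2.04 FPKM in WT 1 and 2. The log2 change of Btg2 was 1.74 (limma adjusted p = 0.0803).

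**Figure D1:**
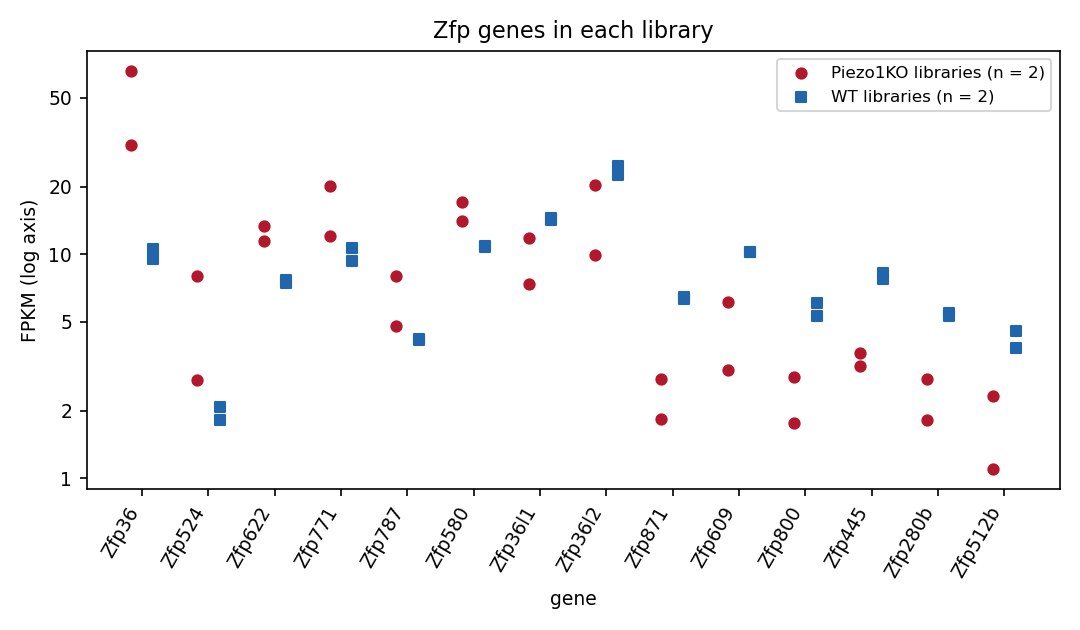
FPKM (log axis) in each library for 14 Zfp genes. Shown are the 6 with the largest positive change, Zfp36l1 and Zfp36l2, and the 6 with the largest negative change. Both sets of 6 were taken from genes whose groups do not overlap. Circles are Piezo1KO libraries and squares are WT libraries. Zfp36 lies at 65.9 and 30.6 FPKM in Piezo1KO and at 9.50 and 10.6 FPKM in WT. For Zfp871 to Zfp512b the Piezo1KO libraries lie below both WT libraries, as that choice required. After rescaling to assigned reads, 4 of the higher genes (Zfp622, Zfp771, Zfp787 and Zfp580) turned negative. They stayed above the median of all genes tested, which was then -0.67.

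Apart from Zfp36, few Zfp genes were higher in Piezo1KO, and the family as a whole sat lower. The rule has a part in this. Of the 129 genes, 21 had a Piezo1KO mean under 2 FPKM and entered only through WT, so their mean had to be lower. The reverse held for 1 gene. The counts and medians that follow, also those by length, level, chromosome and class, include all of these genes. The log2 change of FPKM + 1 was below 0 for 103 of the 129 genes, against 50.4% of the 11085 genes tested, and above 0 for 26, against 49.6%. Its median was -0.34, with quartiles of -0.57 and -0.057, against a median of -0.0059 over all genes tested and of -0.029 over 9940 protein-coding genes tested. The values of the groups did not overlap for 81 genes, lower in Piezo1KO, and for 15 genes, higher; over all genes tested these shares were 35.6% and 33.9%. A size of at least 0.5 was reached by 37 genes on the lower side and 4 on the higher side, against 13.1% and 19.3% of all genes. Genes of like level or length were also mostly lower. From 2 to 5 FPKM, 66 of 78 Zfp genes were below 0, against 66.9% of 2501 protein-coding genes. At 6 kb and over, 45 of 46 Zfp genes were, and 2431 of 3058 protein-coding genes.

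No single Zfp gene passed limma's test at an adjusted p of 0.05, 0 higher and 0 lower, where 0.731% and 0.37% of all genes tested passed higher and lower. At an unadjusted p under 0.05 the counts of Zfp genes were 5 higher and 44 lower, against 14.9% and 13.7% of all genes. On whole reads recovered from the FPKM, limma's voom also called 0 higher and 0 lower, against 0.659% and 0.0902% of all genes. The count rests on single libraries, and the median SD within a group was 0.206 in Piezo1KO and 0.0749 in WT, so a fit that leaves out a Piezo1KO library takes its spread from the closer pair: without Piezo1KO 1 it was 12 higher and 62 lower, where 27.5% and 25.4% of all genes passed, and without Piezo1KO 2 it was 2 higher and 16 lower, where 9.71% and 4.54% passed. After rescaling, 1 passed higher and 35 lower, against 2.5% and 12.9% of all genes, with a median of -0.67 over all genes and of -0.95 over the Zfp genes.

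Levels were low in most of the family. The mean was from 2 to 5 FPKM for 78 genes, from 5 to 10 for 32 and at least 10 for 19. The median level was 3.49 and 3.36 FPKM in Piezo1KO 1 and 2, against 4.48 and 4.52 FPKM in WT 1 and 2. Of the other protein-coding Zfp genes, 77 had a mean from 1 to 2 FPKM, 153 were lower but above 0, and 35 had no read in any library. The Piezo1KO mean alone was under 2 FPKM for 21 of the 129 genes and the WT mean alone for 1, Zfp524, so the rule let in more genes through WT than through Piezo1KO, and these had to differ. Just inside the threshold lay Zfp959 and Zfp236, with means of 2.06 and 2.06 FPKM, and just outside it Zfp719 and Zfp704, with means of 1.98 and 1.98 FPKM.

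The lowest changes belonged to C2H2 genes, and 122 of the 129 genes were C2H2 genes by the classes given below. Zfp871 had 2.77 and 1.84 FPKM in Piezo1KO 1 and 2, against 6.41 and 6.30 FPKM in WT 1 and 2, a log2 change of -1.17 (standard error 0.19, limma adjusted p = 0.0863). Zfp445 had 3.63 and 3.15 FPKM in Piezo1KO 1 and 2, against 7.71 and 8.23 FPKM in WT 1 and 2, a log2 change of -1.03 (standard error 0.14, limma adjusted p = 0.063). Zfp445 acts with Zfp57 to keep imprinted genes methylated, and it had the smallest p of the 129 genes. It passed after quantile normalisation (limma adjusted p = 0.0438) and among protein-coding genes alone (limma adjusted p = 0.0486). It also passed after rescaling (limma adjusted p = 0.00511), where 12.9% of all genes tested passed lower. Its limma adjusted p was 0.00495 and 0.0212 without Piezo1KO 1 and 2, and 0.615 and 0.657 without WT 1 and 2.

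Zfp609, a cofactor that works with the cohesin loader Nipbl in the mouse cortex, had 6.09 and 3.05 FPKM in Piezo1KO 1 and 2, against 10.2 and 10.2 FPKM in WT 1 and 2 (log2 change -1.06, limma adjusted p = 0.138). Zfp800 had 2.84 and 1.77 FPKM in Piezo1KO 1 and 2, against 6.04 and 5.31 FPKM in WT 1 and 2 (log2 change -1.03, limma adjusted p = 0.117). Zfp280b and Zfp512b both had a log2 change of -0.97 (limma adjusted p of 0.114 and 0.138). In each of these genes both Piezo1KO libraries lay below both WT libraries, as the choice of genes without overlap required. Piezo1KO 2 was the lowest of the 4 libraries in each. Without Piezo1KO 1 and without Piezo1KO 2 the log2 change was -1.47 and -0.66 for Zfp609, and -1.30 and -0.63 for Zfp512b. After rescaling, all 6 of the lowest genes passed, with log2 changes from -1.74 for Zfp871 to -1.47 for Zfp512b. The median of all genes tested was then -0.67, and 12.9% of them passed lower.

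Of the 5 genes that followed Zfp36 on the higher side, 3 were among the shorter members. Zfp524 (1436 bases) had 2.74 and 7.99 FPKM in Piezo1KO 1 and 2, from 58 and 86 reads, against 2.08 and 1.81 FPKM in WT 1 and 2, from 59 and 53 reads (log2 change 0.98, standard error 0.44, limma adjusted p = 0.213). Zfp771 (2009 bases) had 12.02 and 20.2 FPKM in Piezo1KO 1 and 2, against 10.6 and 9.32 FPKM in WT 1 and 2 (log2 change 0.60, limma adjusted p = 0.209). Zfp580, the shortest of the family with 1258 bases, had 14.1 and 17.1 FPKM in Piezo1KO 1 and 2, against 10.9 and 10.7 FPKM in WT 1 and 2 (log2 change 0.48, limma adjusted p = 0.148). In all 3 genes Piezo1KO 2 was the highest library. The WT mean of Zfp524 was under 2 FPKM, so it entered only through Piezo1KO and its mean had to be higher there. Without Piezo1KO 1 and without Piezo1KO 2 the log2 change was 1.61 and 0.34 for Zfp524, and 0.95 and 0.25 for Zfp771. Zfp771 and Zfp580 turned to -0.15 and -0.27 after rescaling, where the median of all genes tested was -0.67.

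The other two were longer than the median member (4870 bases). Zfp622 (7130 bases), whose yeast homologue Rei1 matures the large ribosomal subunit, had 11.4 and 13.4 FPKM in Piezo1KO 1 and 2, against 7.40 and 7.70 FPKM in WT 1 and 2 (log2 change 0.64, standard error 0.14, limma adjusted p = 0.122, -0.089 after rescaling). Zfp787 (5443 bases) had 4.80 and 8.02 FPKM in Piezo1KO 1 and 2, against 4.14 and 4.19 FPKM in WT 1 and 2 (log2 change 0.49, limma adjusted p = 0.243, -0.20 after rescaling). For both, Piezo1KO and WT did not overlap, as the choice of genes required. Without Piezo1KO 1 and without Piezo1KO 2 the log2 change of Zfp787 was 0.80 and 0.17. The median of all genes tested after rescaling was -0.67.

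The 5 most abundant Zfp genes were Zfp706, Zfp36, Zfp428, Zfp598 and Zfp207. Zfp706 had 38.6 and 40.2 FPKM in Piezo1KO 1 and 2, against 34.3 and 34.7 FPKM in WT 1 and 2 (log2 change 0.19, limma adjusted p = 0.369), and it turned to -0.60 after rescaling. Zfp428, the second shortest with 1308 bases, had 26.1 and 29.5 FPKM in Piezo1KO 1 and 2, against 21.7 and 18.1 FPKM in WT 1 and 2 (log2 change 0.46, limma adjusted p = 0.16, -0.32 after rescaling). Zfp598, a ubiquitin ligase that senses collided ribosomes, had 23.2 and 15.02 FPKM in Piezo1KO 1 and 2, against 23.7 and 25.1 FPKM in WT 1 and 2 (log2 change -0.36, limma adjusted p = 0.329). Zfp207, a spindle protein that binds Bub3, had 21.1 and 20.02 FPKM in Piezo1KO 1 and 2, against 22.5 and 21.2 FPKM in WT 1 and 2 (log2 change -0.083, limma adjusted p = 0.672). The log2 change of Zfp598 was -0.66 without Piezo1KO 1 and -0.066 without Piezo1KO 2. Beside the rescaled values of Zfp706 and Zfp428, the median of all genes tested was -0.67.

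Other well-known members, picked for their roles after their values were computed, were on the lower side, with 1 exception. Zfp217, whose human homologue is amplified in breast cancer, had 2.79 and 3.02 FPKM in Piezo1KO 1 and 2, against 5.36 and 5.10 FPKM in WT 1 and 2 (log2 change -0.67, limma adjusted p = 0.112). Zfp281, a regulator of pluripotency, and Zfp148, a relative that binds the same kind of GC-rich site, had log2 changes of -0.51 and -0.49 (limma adjusted p of 0.141 and 0.132). Zfp809, the KRAB protein that silences murine leukaemia virus, had 3.62 and 2.48 FPKM in Piezo1KO 1 and 2, against 4.68 and 4.05 FPKM in WT 1 and 2 (log2 change -0.42, limma adjusted p = 0.222). Zfp143, an activator of small nuclear RNA genes, had a log2 change of -0.21 (limma adjusted p = 0.378). Zfp703, whose human homologue is amplified in luminal breast cancer, had 7.02 and 6.33 FPKM in Piezo1KO 1 and 2, against 5.64 and 4.93 FPKM in WT 1 and 2 (log2 change 0.29, limma adjusted p = 0.23).

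The comparison with gene length asked whether longer Zfp genes stood lower. Across the 129 genes, log2 change and gene length had a Spearman correlation of -0.45 and, on log10 length, a Pearson correlation of -0.43. The genes share the same 4 libraries and are not independent replicates. Without Zfp36 the 2 values were -0.45 and -0.46 over 128 genes. The relation was not particular to the family: over 9940 protein-coding genes tested the Spearman correlation was -0.56, and over 8690 with at least 2 FPKM it was -0.59. Each Piezo1KO library showed it, with a Spearman correlation of -0.43 for Piezo1KO 1 and -0.42 for Piezo1KO 2 over the Zfp genes, each set against the same WT mean. The share of mitochondrial reads, given above, also differed between the genotypes, and its part in the relation was not tested.

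**Figure D2:**
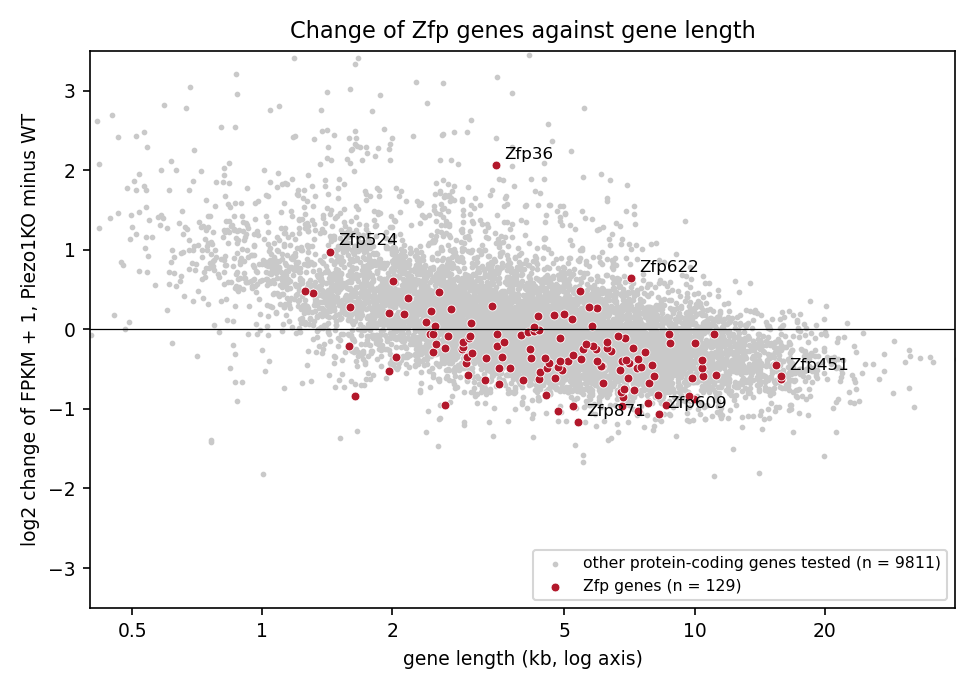
Log2 change of FPKM + 1 (Piezo1KO minus WT) against gene length in kilobases (log axis) for the 129 Zfp genes (red) and 9811 other protein-coding genes tested (grey), of which 42 lie outside the plotted range. Zfp genes run downward with length, as the grey genes do, from a median of 0.24 under 2 kb to -0.48 at 6 kb and over. Zfp36 lies apart at 2.06.

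By length band the Zfp medians stepped down and lay below those of all protein-coding genes in each band. The bands include the 21 Zfp genes that entered only through WT, whose means had to be lower. Under 2 kb the median log2 change was 0.24 over 8 Zfp genes, against 0.61 over 1376 protein-coding genes. From 2 to 3 kb it was -0.13 over 22 Zfp genes, against 0.23. From 3 to 4 kb it was -0.19 over 16 Zfp genes, against 0.044, and from 4 to 6 kb -0.33 over 37 Zfp genes, against -0.10. At 6 kb and over it was -0.48 over 46 Zfp genes, against -0.28 over 3058 protein-coding genes; 45 of these 46 Zfp genes were lower in Piezo1KO, and 2431 of the 3058. The 3 longest, Zfp451 (15839 bases), Zfp638 (15810 bases) and Zfp652 (15444 bases), had log2 changes of -0.59, -0.62 and -0.44 (limma adjusted p of 0.123, 0.142 and 0.167). Zfp451 is a SUMO ligase, and Zfp638 is a nuclear protein that silences unintegrated retroviral DNA.

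**Figure D3:**
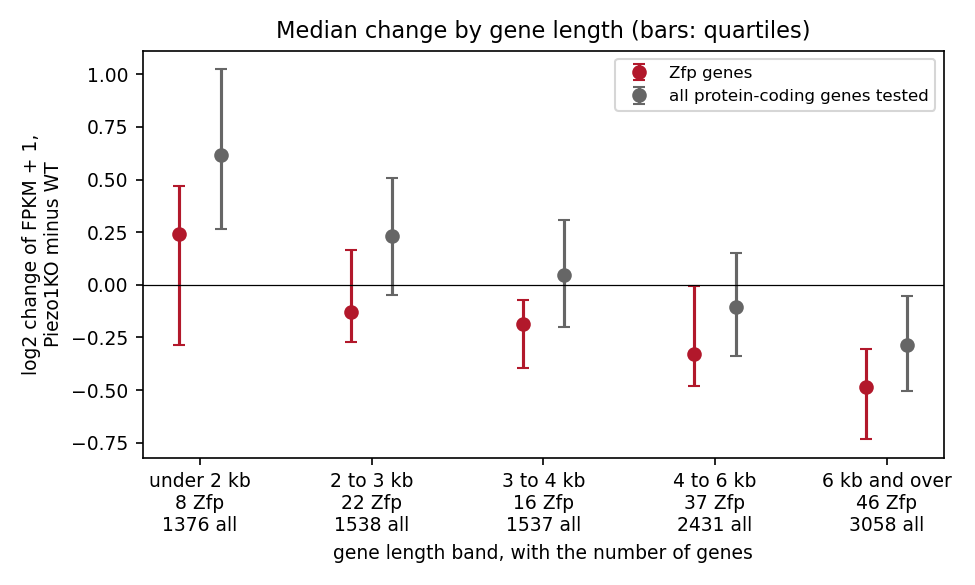
Median log2 change of FPKM + 1 (Piezo1KO minus WT) in 5 bands of gene length for Zfp genes (red) and all protein-coding genes tested (grey), with bars from the lower to the upper quartile and the number of genes under each band. Both series step down with length, and the Zfp median is lower in every band, by the least at 6 kb and over (-0.48 against -0.28).

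Removing the trend on gene length from each library, by a loess curve over all genes tested, left part of the difference. The Zfp median was then -0.27, against -0.021 for all genes tested, and 105 of the 129 genes were below 0, against 52.1% of all genes. The Spearman correlation with length over the Zfp genes became 0.053. With the trend removed, the medians by length band ran from -0.17 under 2 kb to -0.34 from 2 to 3 kb, and they were -0.26 at 6 kb and over. Zfp36 kept a log2 change of 1.97 and Zfp622 one of 0.84, while Zfp428 and Zfp580, both short, turned to -0.028 and -0.016, and Zfp652, among the longest, was at -0.039.

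Change also differed by level. From 2 to 5 FPKM the Zfp median was -0.38, against -0.19 for 2501 protein-coding genes, from 5 to 10 FPKM -0.28, against -0.093 for 2188, and from 10 FPKM -0.16, against 0.16 for 4001. The Zfp median was below that of protein-coding genes of like level in each band, and that difference was not tested. Within groups the Zfp medians were close to 0, at -0.080 for Piezo1KO 2 minus Piezo1KO 1 and -0.022 for WT 2 minus WT 1. The Spearman correlation of these differences with length was -0.18 and -0.076 over the Zfp genes, and -0.37 and 0.13 over protein-coding genes.

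Features that the rule did not use divided the family further. The coding part of the longest coding transcript (GENCODE M21) gave a Spearman correlation of -0.57 with change, the 3′ untranslated part one of -0.37 and the GC content of the transcript one of 0.21, over all 129 genes. Over protein-coding genes tested these were -0.60, -0.37 and 0.092. By place, chromosome 7 held 27 of the genes, more than any other, followed by chromosome 6 with 13 and chromosome 17 with 10. The 27 genes on chromosome 7 had a median log2 change of -0.18, a median GC content of 55.5% and a median length of 4116 bases, against -0.35, 48.6% and 5036 bases for the other 102. Of the 27 on chromosome 7, 9 were higher and 12 lower without overlap, where all genes tested had 33.9% and 35.6%. Genes on chromosome 17 had a median log2 change of -0.30, with 56.8% GC and 2669 bases. Those on chromosome 6 had a median of -0.28, with 54.5% GC and 4255 bases.

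Protein classes were set by letters in the translated coding sequence, which mark a pattern and not a proven domain. A KRAB box with other letters is missed, so the class without KRAB letters can hold KRAB proteins. The lowest log2 change with KRAB letters was -0.84, so Zfp871 and Zfp445 were in the class without them. C2H2 fingers without the letters of a KRAB box were found in 102 genes, with a median log2 change of -0.35 and 66 lower without overlap against 11 higher. KRAB letters were found in 20 genes, with a median of -0.31 and 12 lower without overlap against 1 higher, where all genes tested had 35.6% lower and 33.9% higher. The CCCH letters fitted 4 genes, the Zfp36 group and Zfp330, a cysteine-rich nucleolar protein, and their changes ran from -0.69 to 2.06. No finger was found in 3 genes, Zfp365, Zfp703 and Zfp839. The classes include the 21 genes that entered only through WT, whose means had to be lower. Among genes with C2H2 fingers the number of fingers, which reached 30 in Zfp236, gave a Spearman correlation of -0.27 with change over 122 genes. KRAB genes lie in clusters of near-identical copies, and reads shared between copies could be split or lost in the authors' counting, so their single values are uncertain.

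**Figure D4:**
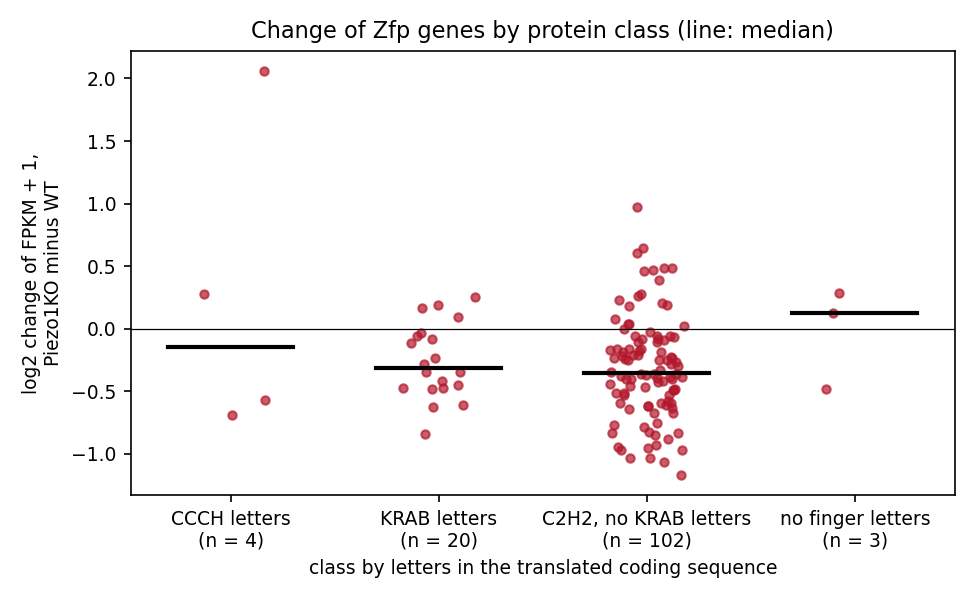
Log2 change of FPKM + 1 (Piezo1KO minus WT) of each Zfp gene by class of letters in the translated coding sequence; points are genes, spread sideways only to be seen, and lines are medians. The genes with KRAB letters centre at -0.31, and those with C2H2 fingers but no KRAB letters at -0.35. The latter class can hold KRAB proteins with other letters. The 4 genes with CCCH letters run from -0.69 to 2.06.

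The KRAB corepressor genes and the other zinc finger families gave no call by the test as set, and their medians ranged from -0.31 to -0.12. Of 25 tested corepressor genes 0 passed in limma in either direction, with 0 higher and 6 lower at an unadjusted p under 0.05, where all genes tested had 14.9% and 13.7%. The median log2 change was -0.29, and -0.10 with the length trend removed, against -0.27 for the Zfp genes treated likewise; the difference was not tested. Trim28, the corepressor that KRAB boxes bind, had 111 and 84.8 FPKM in Piezo1KO 1 and 2, against 95.9 and 96.8 FPKM in WT 1 and 2, with both Piezo1KO values on opposite sides of WT (log2 change 0.0099, limma adjusted p = 0.974). After rescaling, Trim28 was at -0.79, where the median of all genes tested was -0.67. Setdb1, the histone methyltransferase it brings, had 5.65 and 4.42 FPKM in Piezo1KO 1 and 2, against 6.59 and 7.46 FPKM in WT 1 and 2 (log2 change -0.42, limma adjusted p = 0.182). Morc2a and Cbx5, which encode a HUSH partner and the heterochromatin protein HP1 alpha, had the smallest p of the list. Their log2 changes were -0.85 and -0.54 (limma adjusted p of 0.0991 and 0.139). Both passed after rescaling (limma adjusted p of 0.0118 and 0.0281), where 12.9% of all genes tested passed lower.

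Other C2H2 families were counted in the same way, beside the same 14.9% higher and 13.7% lower at an unadjusted p under 0.05 over all genes tested. Of 29 tested Zbtb genes 0 passed in limma, with 0 higher and 11 lower at an unadjusted p under 0.05, and the median was -0.31 (-0.20 with the length trend removed), led by Zbtb41 and Zbtb43 at -0.81 and -0.61 (limma adjusted p of 0.0925 and 0.122). Of 14 tested Zkscan and Zscan genes 0 passed, with 0 higher and 2 lower at an unadjusted p under 0.05, and the median was -0.21 (-0.12 with the length trend removed), led by Zscan22 and Zkscan8 at -0.70 and -0.57 (limma adjusted p of 0.117 and 0.148). Of 10 tested Klf genes 0 passed, with 1 higher and 2 lower at an unadjusted p under 0.05, and the median was -0.12. Klf2, which keeps T cells and endothelium quiescent, had 37.8 and 28.3 FPKM in Piezo1KO 1 and 2, against 13.6 and 9.10 FPKM in WT 1 and 2 (log2 change 1.47, limma adjusted p = 0.0955), while Klf15 had a log2 change of -0.59 (limma adjusted p = 0.122). After rescaling, Zbtb41, Zbtb43, Zscan22 and Klf15 passed (limma adjusted p of 0.0179, 0.0429, 0.0321 and 0.043), lower in Piezo1KO. With that scaling 12.9% of all genes tested passed lower. Klf2 and Zfp36 were both highest in Piezo1KO 1.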

How the data were processed

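The authors deposited 1 table of FPKM with the length of each gene. The submitters' processing notes name fastp 0.19.7, featureCounts 1.5.0-p3 and the build mm10 (GRCm38); the sources used here give no aligner, annotation release, strand setting or FPKM formula. Whole reads could be recovered for 100% of the values (tolerance 0.05 reads) from steps in FPKM times length. Those steps give library sizes of 0.962 and 0.544 times assigned reads for Piezo1KO 1 and 2, and of 1.26 and 1.28 times for WT 1 and 2. So scaling differs between libraries, and rescaled values were tried.

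The 11085 genes whose mean reached 1 FPKM entered limma 3.58.1 (R 4.3.3, intensity trend) as log2(FPKM + 1), Piezo1KO minus WT, two-sided, with Benjamini-Hochberg adjustment and a threshold of 0.05. Residual and prior degrees of freedom were 2 and 2.59; no exact test of 2 against 2 goes below p = 0.333. Changes of low genes are understated on this scale. The test was also run on simulated data with the same dispersion and scaling in both groups, unlike these libraries. That run does not show how the test behaves here. Genes named were past the test, the 6 largest changes per direction without overlap, the 5 most abundant, the 3 longest and shortest, the Zfp36 group, those beside the level threshold, Piezo1, Trim28, Setdb1 and the 2 smallest p of each other list; 6 more were picked for known roles after their values were seen. Members and lists were chosen with earlier results of these data known. Of the 129 genes, 123 had the same coordinates in GENCODE M21. Alternatives were a pseudocount of 0.1, other filters, scalings and level thresholds, voom, quantile normalisation, protein-coding genes alone, length correction, a block, and leaving out each library, where the lone library of a group is assumed to vary like the other group. Sequence tables for proteins were not used here.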

Additional observations from a re-analysis of the deposited data

How the results depend on the processing

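The Zfp median was below 0 and below that of all genes under every alternative run. It was -0.95 after rescaling to assigned reads and -0.52 with mitochondrial reads left out of the scaling, where all genes had -0.67 and -0.20. It was -0.27 with the length trend removed, and -0.27 for the 51 genes of at least 5 FPKM, whether the filter or the choice of genes was set there; leaving out 1 library gave -0.35 to -0.27. The Spearman correlation with gene length was 0.053 with the length trend removed, by construction, -0.34 for 206 genes of at least 1 FPKM, -0.38 for genes of at least 5 FPKM, and -0.48 to -0.42 without 1 library. Zfp genes called numbered 36 after rescaling, 1 each among protein-coding genes, after quantile normalisation and with the replicate block, and 0 to 74 without 1 library. Calls over all genes, 122 as reported, numbered 1 without a filter, 68 at a mean FPKM of at least 5, 1707 after rescaling, 192 after quantile normalisation, 18 with the length trend removed, 264 with the replicate block and 0 to 5859 without 1 library. Of all calls, 66.4% were higher as reported, 16.2% after rescaling, 56.2% without mitochondrial reads in the scaling, 52.0% without Piezo1KO 1, 85.3% at a mean FPKM of at least 5, 88.0% in voom and 87.3% among protein-coding genes.

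After rescaling, these turned negative: Zfp622 -0.089, Zfp771 -0.15, Zfp787 -0.20, Zfp580 -0.27, Zfp706 -0.60, Zfp428 -0.32 and Trim28 -0.79. The median of all genes tested was then -0.67, and of the genes just listed only Trim28 lay below it. With mitochondrial reads left out, Zfp706 and Trim28 were at -0.032 and -0.21, and after quantile normalisation at -0.15 and -0.54, with Zfp959 at 0.019. With the length trend removed, Zfp580, Zfp428 and Zfp207 were at -0.016, -0.028 and 0.090. Without 1 library, Zfp719 ranged from -0.29 to 0.020, Trim28 from -0.18 to 0.20 and Zfp959 from -0.16 to 0.033. The cause was not tested. Equal sample numbers did not move together (correlation of deviations -0.033), so the block is given only as an alternative; among the genes with a value above, it added Zfp36, Klf2 and Btg2 to the calls (limma adjusted p of 0.0425, 0.0267 and 0.0307). Leaving out Zfp36, chosen after seeing the data, left the median at -0.34. The lowest count of a Zfp gene in any library was 8 reads, and the median of the lowest counts was 127. With 2 libraries a group small changes can be missed, and the size that could be detected was not measured.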
